A study of Mus musculus with 12 samples.

Results

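The genes of Wnt and Norrin signalling were followed in 2 genotypes of mouse medulloblastoma (MB) and in purified granule neuron progenitors (GNPs), the cells from which Sonic hedgehog MB arises. A list of 46 genes was drawn up by role, from ligands and receptors through intracellular transducers to inhibitors and target genes, and 45 of them carried a probe among the 19057 genes of the array. *Tcf7* was not analysed here. Each gene was read from its brightest probe on average, and the values given are normalized log2 signals, on which a difference of 1 is a doubling.

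The 12 samples fell into 3 groups of 4, each hybridised to 1 Illumina MouseWG-6 v2.0 BeadChip array. NdpKO;Ptch+/- MBs came from mice on a mixed strain background that lack Norrin through a germline *lacZ* cassette in the X-linked *Ndp* gene and carry 1 working *Ptch* allele, and the methods restrict this genotype to males. Ptch+/- MBs came from mice with the same *Ptch* defect and intact *Ndp*, which the labels place on C57Bl/6 and give no sex. WT GNPs came from wild-type C57Bl/6 cerebella at postnatal day 6 (P6) and were isolated by percoll gradient and pre-plating, without culture. No age is given for the tumors.

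The methods describe controls of the same breeding cohort while the labels name different strain backgrounds, so by the labels strain and genotype cannot be told apart. By the methods the controls include both sexes, and the paper reports a shorter tumor latency in the compound mutants. Sex and age may therefore differ between the tumor groups, and neither can be told apart from genotype here. Whether the samples of a group are separate mice is not in the labels, so each p measures the spread between these samples. Whole tumors hold several cell types, and the GNP samples also gave signal for genes of myelin and of inhibitory neurons. Fewer cells of a type and less RNA per cell therefore cannot be told apart. The number of arrays limits the precision. Within the NdpKO;Ptch+/- and the Ptch+/- MBs, arrays correlated at 0.984 to 0.993 over all probes.

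Canonical Wnt signalling begins when a secreted Wnt binds a Frizzled receptor together with LRP5 or LRP6, which stops the AXIN, APC and GSK3 complex from degrading β-catenin and lets β-catenin activate genes through TCF/LEF factors. Norrin, the product of *Ndp*, is not a Wnt but enters the same pathway through FZD4, LRP5 or LRP6 and the tetraspanin TSPAN12, a route best known from the endothelium of retinal and cerebellar blood vessels. Several target genes, among them *Axin2*, *Nkd1*, *Notum*, *Znrf3* and *Rnf43*, encode proteins that restrain the pathway in turn.

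A probe was taken as at background on an array when its signal was under 4.5, close to the array median of 4.15. By this limit 18 of the 45 genes were at background on all 12 arrays, 17 were above it on all 12, and 10 were above it on some. The 18 were *Ndp*, the ligand genes *Wnt3* and *Wnt5b*, the receptor genes *Fzd4*, *Lrp5*, *Fzd6*, *Fzd8* and *Fzd9*, *Dvl2*, *Dvl3*, *Lef1*, the inhibitor genes *Dkk2*, *Wif1* and *Frzb*, and the feedback genes *Nkd2*, *Notum*, *Rnf43* and *Znrf3*. For these the array held no measurable signal in any group, which does not tell a low level from a probe that does not respond. The paper detected transcripts of *Ndp*, *Fzd4* and *Lrp5* in isolated GNPs by qRT-PCR.

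**Figure D1:**
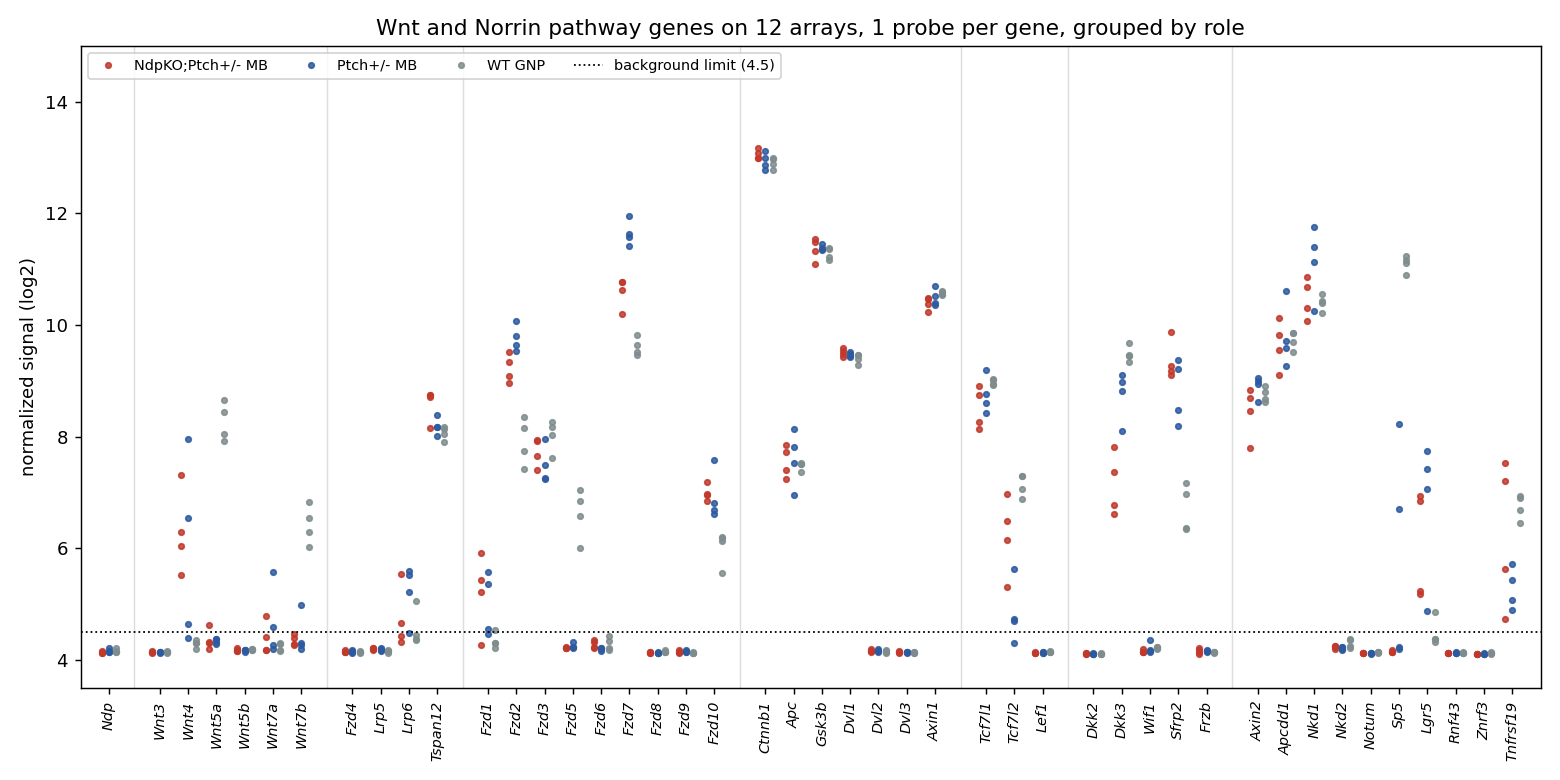
Normalized log2 signal (vertical axis) of 45 genes (horizontal axis) on each of the 12 arrays, 1 point per array, with genes ordered by role from left to right: Norrin, Wnt ligands, the Norrin receptor complex, other Frizzleds, transducers, TCF/LEF factors, secreted inhibitors, and targets with feedback genes. The dotted line is the background limit of 4.5, and 18 genes lie under it on every array.

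Between the tumor genotypes, 2 of the 45 genes differed, and both were lower in NdpKO;Ptch+/- MBs: *Fzd7*, a Frizzled receptor, and *Dkk3*, a secreted protein of the Dickkopf family. None was higher. The 2 falls are 4.44% of the 45 genes, against 1.26% of all 19057 genes called lower and 0.808% called higher in this comparison (limma, Benjamini-Hochberg adjusted p under 0.05). Of the 27 genes above background on any array, 6 had an unadjusted p under 0.05 by limma. The share of all genes at that unadjusted level was not counted, so this number has nothing to be compared with. The median log2 fold change of the 27 was −0.05, against 0.01 over the 9648 such genes of the array.

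*Ndp*, the disrupted gene, is the first to be read in a knockout. Its 1 probe gave 4.15, 4.16, 4.12 and 4.13 in the NdpKO;Ptch+/- MBs, 4.15, 4.14, 4.16 and 4.21 in the Ptch+/- MBs and 4.14, 4.15, 4.21 and 4.16 in the WT GNPs. All 12 values lay at background, so the array neither checks the genotype labels nor measures *Ndp* in tumors with an intact gene.

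The receptor complex for Norrin was measured in part. *Fzd4*, the Norrin receptor gene, lay between 4.13 and 4.18 on all arrays, and *Lrp5*, encoding its co-receptor, between 4.13 and 4.22. The alternative co-receptor gene *Lrp6* read 4.67, 4.43, 5.54 and 4.32 in the NdpKO;Ptch+/- MBs, 5.60, 5.22, 5.53 and 4.49 in the Ptch+/- MBs and 4.36, 4.37, 4.45 and 5.05 in the WT GNPs. The groups overlapped around the background limit, and the difference between tumor genotypes was −0.47 (95% interval −1.20 to 0.26, adjusted p = 0.625 by limma).

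*Tspan12*, whose product brings FZD4 and Norrin together, was the member of this complex above background on all 12 arrays. Its signal was 8.75, 8.72, 8.75 and 8.15 in the NdpKO;Ptch+/- MBs and 8.18, 8.02, 8.18 and 8.38 in the Ptch+/- MBs. The groups overlapped through 1 tumor, NdpKO;Ptch+/- MB replicate 4, the lowest of its group. The log2 fold change of 0.40 (95% interval 0.09 to 0.71) did not pass (adjusted p = 0.239 by limma), but without that replicate it was 0.55 and passed (adjusted p = 0.0278).

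*Fzd7* gave 10.77, 10.19, 10.78 and 10.62 in the NdpKO;Ptch+/- MBs, 11.95, 11.42, 11.58 and 11.63 in the Ptch+/- MBs and 9.82, 9.65, 9.51 and 9.47 in the WT GNPs. The 3 groups did not overlap: the Ptch+/- MBs were highest, the NdpKO;Ptch+/- MBs intermediate and the GNPs lowest. Between the tumor genotypes the signal fell by 1.06 on the log2 scale (SE 0.15, 95% interval −1.41 to −0.71), a 2.08-fold lower level in NdpKO;Ptch+/- MBs (adjusted p = 0.0135 by limma). An exact permutation test over the 8 tumors gave p = 0.0286, two-sided, the smallest that 4 against 4 samples allow. The call held when any 1 tumor was left out (adjusted p 0.0198 to 0.0341) and was lost when the fit used the 8 tumors alone (adjusted p = 0.101), where 45 genes passed against 395 in the fit of all 12 arrays.

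*Fzd2*, a close relative of *Fzd7*, followed the same order of groups. Its values were 9.52, 8.96, 9.33 and 9.08 in the NdpKO;Ptch+/- MBs, 10.07, 9.81, 9.53 and 9.64 in the Ptch+/- MBs and 8.15, 8.35, 7.74 and 7.43 in the WT GNPs. The tumor genotypes were separated by 0.01 at their closest, and the difference of −0.54 did not pass (adjusted p = 0.299 by limma, 95% interval −1.02 to −0.07; exact permutation p = 0.0286). The differences of *Fzd1*, *Fzd3* and *Fzd10* between the tumor genotypes were 0.07 to 0.25 and none passed, while *Fzd5* was at background in all 8 tumors.

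*Dkk3* was the second gene to fall. It gave 6.61, 6.77, 7.37 and 7.81 in the NdpKO;Ptch+/- MBs, 8.10, 8.82, 9.10 and 8.98 in the Ptch+/- MBs and 9.47, 9.67, 9.44 and 9.34 in the WT GNPs. The 3 groups did not overlap: the NdpKO;Ptch+/- MBs were lowest and the GNPs highest. The signal was lower by a log2 fold change of −1.61 (SE 0.29, 95% interval −2.25 to −0.96) in NdpKO;Ptch+/- than in Ptch+/- MBs, 3.05-fold, with an adjusted p of 0.0317 by limma. A second probe of the gene gave −1.84 (adjusted p = 0.0479) and the third lay at background.

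The *Dkk3* call was less stable than that of *Fzd7*: leaving out 1 tumor at a time, it was lost for 6 of the 8, namely NdpKO;Ptch+/- MB replicates 1, 2 and 3 and Ptch+/- MB replicates 2, 3 and 4 (adjusted p 0.0558 to 0.0833), with fold changes of −1.83 to −1.43 over all 8 omissions. It was also lost with the 8 tumors alone (adjusted p = 0.178). *Dkk3* is expressed by neurons, and 8 markers of mature granule neurons, of which 3 were at background on all arrays, had mean signals of 7.97 to 8.34 in NdpKO;Ptch+/- and 8.15 to 8.75 in Ptch+/- MBs. None of the 8 passed, and the difference nearest to passing was that of *Calb2*, a calcium-binding protein gene, at −1.38 (95% interval −2.19 to −0.57, adjusted p = 0.117 by limma). *Rbfox3* differed by −0.02, *Cbln1* by −0.13, *Reln* by −0.30 and *Slc17a7* by −0.48. None of 10 meningeal genes passed either. Their fitted differences ran from −2.26 for *Foxd1* to 0.23 for *Islr*, which alone was higher. *Dcn* was at −1.74 (adjusted p = 0.061 by limma) and *Lum* at −1.21. *Foxd1* and *Slc6a13*, which was also lower, were above background among the tumors in Ptch+/- MB replicates 1 and 4 alone. The remaining genes of this list fell no further than −0.08. The part of these cells in the *Dkk3* result was not tested.

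**Figure D2:**
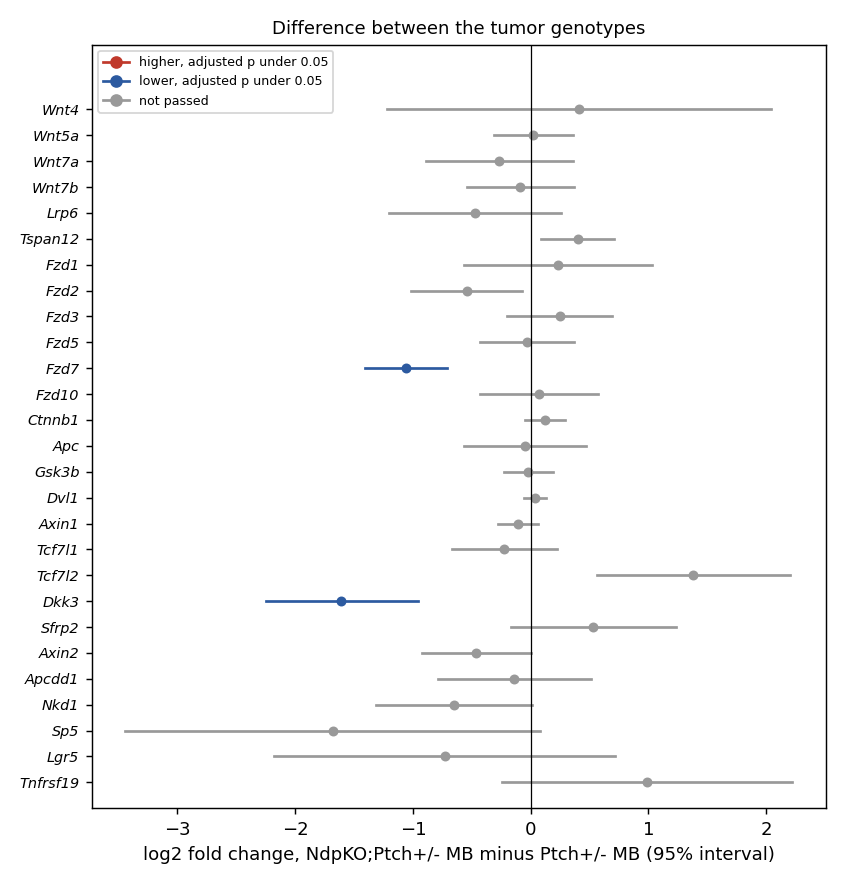
Log2 fold change of NdpKO;Ptch+/- MB minus Ptch+/- MB (horizontal axis; point, with its 95% interval as a line) for the 27 genes above background on any array (vertical axis). *Fzd7* (−1.06) and *Dkk3* (−1.61) are coloured as lower at an adjusted p under 0.05, and the other 25 did not pass; *Fzd5* was at background in all 8 tumors.

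None of the 7 genes between receptor and nucleus passed, and 2 of them were at background. *Ctnnb1*, the gene of β-catenin, had means of 13.06 ± 0.09, 12.94 ± 0.15 and 12.91 ± 0.09 (SD, n = 4) in NdpKO;Ptch+/- MBs, Ptch+/- MBs and WT GNPs. *Apc*, *Gsk3b*, *Dvl1* and *Axin1*, which encode the degradation complex and its inhibitor Dishevelled, were above background on all arrays, and the differences of these 5 genes between tumor genotypes ran from −0.11 to 0.12. The 95% interval was −0.05 to 0.29 for *Ctnnb1*, −0.23 to 0.19 for *Gsk3b* and widest for *Apc*, at −0.57 to 0.47. None of the 5 passed in any of the 3 comparisons.

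Of the TCF/LEF factors, *Tcf7l1*, mostly known as a repressor of target genes, differed by −0.23 between the tumor genotypes (adjusted p = 0.724 by limma). *Tcf7l2* read 6.98, 6.15, 6.49 and 5.30 in the NdpKO;Ptch+/- MBs and 4.31, 5.63, 4.74 and 4.69 in the Ptch+/- MBs. The genotypes overlapped through NdpKO;Ptch+/- MB replicate 4 and Ptch+/- MB replicate 2, and the log2 fold change of 1.38 (95% interval 0.56 to 2.20) did not pass (adjusted p = 0.120 by limma; exact permutation p = 0.0571). It passed when probes at background were left out before the fit (adjusted p = 0.0359) and without NdpKO;Ptch+/- MB replicate 4 (log2 fold change 1.69, adjusted p = 0.0441). The other 5 probes of *Tcf7l2* were at background on all arrays and give no measure of the difference.

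Of the 10 target and feedback genes, 6 were above background, and none passed between the tumor genotypes. *Axin2*, the most widely used readout of β-catenin activity, gave 8.46, 7.79, 8.84 and 8.70 in the NdpKO;Ptch+/- MBs, 9.06, 9.00, 8.94 and 8.63 in the Ptch+/- MBs and 8.91, 8.80, 8.63 and 8.68 in the WT GNPs. The lowest value belonged to NdpKO;Ptch+/- MB replicate 2 and the genotypes overlapped. The difference of −0.46 (95% interval −0.92 to −0.00) had an adjusted p of 0.379 by limma.

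*Nkd1*, which encodes an inhibitor of Dishevelled, read 10.69, 10.08, 10.86 and 10.30 in the NdpKO;Ptch+/- MBs and 11.13, 10.25, 11.40 and 11.75 in the Ptch+/- MBs. Its difference was −0.65 (95% interval −1.31 to 0.01, adjusted p = 0.392 by limma), with overlapping genotypes. *Apcdd1*, encoding a membrane inhibitor of Wnt receptors, differed by −0.14 (95% interval −0.79 to 0.51). *Lgr5*, a target gene that encodes an R-spondin receptor, differed by −0.73 (95% interval −2.18 to 0.72), and *Tnfrsf19*, a receptor gene responsive to β-catenin, by 0.99 (95% interval −0.24 to 2.22). The values of *Lgr5* and *Tnfrsf19* varied by over 2 log2 units within a genotype, so that wide differences in either direction lie inside their intervals.

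*Sp5*, which encodes a zinc finger factor induced directly by β-catenin, had the widest spread of all. It gave 4.15, 4.17, 4.14 and 4.15 in the NdpKO;Ptch+/- MBs, 6.70, 8.22, 4.23 and 4.19 in the Ptch+/- MBs and 11.23, 11.16, 10.89 and 11.11 in the WT GNPs. All 4 NdpKO;Ptch+/- MBs were at background, as were Ptch+/- MB replicates 3 and 4, while Ptch+/- MB replicates 1 and 2 were above it. The genotypes did not overlap (exact permutation p = 0.0286), but Ptch+/- MB replicates 3 and 4 differed from them only below the limit, where differences have no meaning. The fitted difference did not pass (adjusted p = 0.405 by limma).

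The sequence upstream of the start of *Sp5* is shown because this gene had the lowest tumor signal relative to GNPs, and those of *Fzd7* and *Axin2* because they are the receptor gene that fell between the genotypes and the standard target gene, which did not pass. Each run is the 250 bases before the annotated start, 5′ to 3′ on the gene's own strand (RefSeq, GRCm38.p6). Capitals mark the TCF/LEF core motif CTTTGAA or CTTTGAT, searched on both strands.
Sp5, chr2:70474673-70474922, plus strand: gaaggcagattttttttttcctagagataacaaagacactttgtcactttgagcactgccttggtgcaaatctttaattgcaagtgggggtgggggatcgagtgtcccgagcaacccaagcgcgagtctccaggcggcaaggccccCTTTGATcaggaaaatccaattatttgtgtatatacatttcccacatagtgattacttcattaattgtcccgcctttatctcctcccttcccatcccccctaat
Fzd7, chr1:59481897-59482146, plus strand: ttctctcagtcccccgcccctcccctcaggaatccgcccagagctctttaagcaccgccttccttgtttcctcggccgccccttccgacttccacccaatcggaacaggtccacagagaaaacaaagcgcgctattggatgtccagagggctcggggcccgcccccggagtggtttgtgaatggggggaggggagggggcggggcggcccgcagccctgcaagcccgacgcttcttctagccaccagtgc
Axin2, chr11:108920099-108920348, plus strand: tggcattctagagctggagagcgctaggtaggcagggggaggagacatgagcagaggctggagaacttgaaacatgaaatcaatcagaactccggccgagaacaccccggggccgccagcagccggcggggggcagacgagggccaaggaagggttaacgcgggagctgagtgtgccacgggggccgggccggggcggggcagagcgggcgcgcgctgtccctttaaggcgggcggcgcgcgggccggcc
The *Sp5* window held the motif once, 104 bases before the start, and the other 2 windows did not hold these letters. Over the 31 listed genes with an entry, 3 of 41 windows held it, the others being windows of *Wnt5b* and *Tnfrsf19*, while 7.48% of all 32851 promoters of the same length did. A match is a description of letters and not evidence of binding.

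Against WT GNPs, more of the 45 genes passed than between the tumor genotypes, in both directions, and so did more of all genes. In Ptch+/- MBs, 5 of the 45 genes were higher and 7 lower, or 11.1% and 15.6%, against 10.3% of all genes higher and 10.9% lower. In NdpKO;Ptch+/- MBs, 5 were higher and 6 lower, or 11.1% and 13.3%, against 7.69% and 7.98% of all genes. The lower calls include *Fzd8* in both comparisons and *Notum* in that of the Ptch+/- MBs, which were at background on all 12 arrays and whose differences have no meaning. Among genes above background on any array, 18.5% of the 27 genes were higher and 18.5% lower in each comparison, against 18.6% and 18.0% of the 9648 such genes for Ptch+/- MBs and 14.4% and 13.1% for NdpKO;Ptch+/- MBs. Both comparisons share the same 4 GNP samples.

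**Figure D3:**
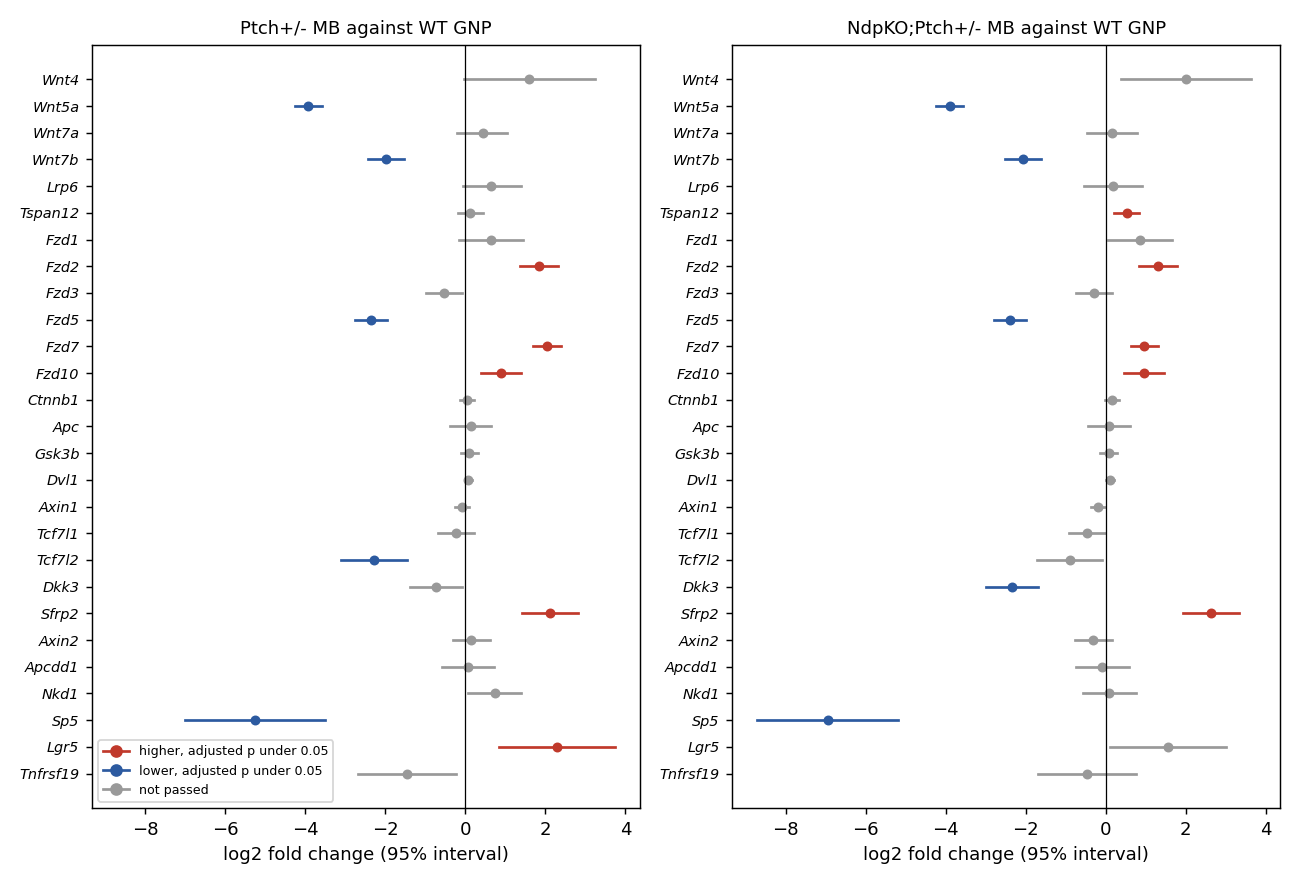
Log2 fold change (horizontal axis; point, with its 95% interval as a line) of Ptch+/- MB (left) and NdpKO;Ptch+/- MB (right) against WT GNP for the 27 genes above background on any array. *Fzd2*, *Fzd7*, *Fzd10* and *Sfrp2* are coloured as higher in both panels, and *Wnt5a*, *Wnt7b*, *Fzd5* and *Sp5* as lower in both; values against a group at background are fitted values.

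Wnt ligand genes above background in the WT GNP samples, whichever cells made them, were at or near background in the tumors. *Wnt5a*, a ligand best known for signalling without β-catenin, gave 8.65, 8.45, 7.93 and 8.04 in the WT GNPs, 4.37, 4.33, 4.29 and 4.37 in the Ptch+/- MBs and 4.31, 4.33, 4.62 and 4.20 in the NdpKO;Ptch+/- MBs. All Ptch+/- MBs were at background, which made the level at least 13.6-fold lower than in GNPs (adjusted p = 2.2e-07 by limma). In NdpKO;Ptch+/- MBs, where replicate 3 was just above the limit, the fitted log2 fold change was −3.90 (adjusted p = 2.7e-07). A second probe of *Wnt5a* was above the limit on 1 GNP array alone and gives no measure of the difference. The third was at background on all arrays.

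*Wnt7b*, a canonical ligand that also acts on brain endothelium, read 6.83, 6.54, 6.30 and 6.03 in the WT GNPs, 4.19, 4.26, 4.31 and 4.99 in the Ptch+/- MBs and 4.27, 4.28, 4.40 and 4.47 in the NdpKO;Ptch+/- MBs. The level was at least 3.80-fold lower in NdpKO;Ptch+/- MBs (adjusted p = 0.000163 by limma), and in Ptch+/- MBs the fitted log2 fold change was −1.98 (adjusted p = 0.000152). Its second probe was at background on all 12 arrays. Its relative *Wnt7a* was near background throughout, with 3 of 12 arrays above the limit.

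*Wnt4* ran the other way without passing. Its signal was 7.31, 6.04, 6.30 and 5.52 in the NdpKO;Ptch+/- MBs, 7.95, 4.40, 6.54 and 4.64 in the Ptch+/- MBs and 4.30, 4.36, 4.30 and 4.19 in the WT GNPs. Every tumor exceeded every GNP sample, but Ptch+/- MB replicate 2 did so only below the limit, where differences have no meaning. The tumors differed among themselves by over 3 log2 units, and the adjusted p was 0.178 for Ptch+/- and 0.114 for NdpKO;Ptch+/- MBs (limma). By the second probe of *Wnt4* both tumor groups overlapped the GNPs. Its differences were 0.72 for Ptch+/- and 0.58 for NdpKO;Ptch+/- MBs (adjusted p = 0.471 and 0.595 by limma).

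Among the receptors, *Fzd5* was at background in all tumors while 3 relatives rose. *Fzd5* gave 7.04, 6.84, 6.58 and 6.01 in the WT GNPs and 4.21 to 4.33 in the 8 tumors, at least 4.34-fold lower in each genotype (adjusted p = 2.2e-05 for Ptch+/- and 2.76e-05 for NdpKO;Ptch+/- MBs by limma). Its other 3 probes were at background on all arrays and give no measure of the difference. *Fzd2* rose by 1.85 on the log2 scale in Ptch+/- MBs (SE 0.21, 3.60-fold, adjusted p = 0.000316) and by 1.30 in NdpKO;Ptch+/- MBs (2.47-fold, adjusted p = 0.00324).

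*Fzd7*, whose values are given above, rose by 2.03 in Ptch+/- MBs (SE 0.15, 4.10-fold, adjusted p = 2.34e-05 by limma) and by 0.97 in NdpKO;Ptch+/- MBs (1.97-fold, adjusted p = 0.00281). *Fzd10* read 6.19, 5.56, 6.13 and 6.20 in the WT GNPs, 6.81, 6.68, 6.62 and 7.58 in the Ptch+/- MBs and 6.98, 6.96, 7.18 and 6.85 in the NdpKO;Ptch+/- MBs. Each tumor exceeded each GNP sample, with fitted differences of 0.90 for Ptch+/- MBs (adjusted p = 0.0207 by limma) and 0.97 for NdpKO;Ptch+/- MBs (adjusted p = 0.0185). The other probes of *Fzd10* lay at or near background. For Ptch+/- MBs the call was lost without WT GNP replicate 2, the lowest of its group (log2 fold change 0.75, adjusted p = 0.0505), and for NdpKO;Ptch+/- MBs without their replicate 3 (0.91, adjusted p = 0.0533).

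*Tspan12* gave 7.91, 8.17, 8.14 and 8.04 in the WT GNPs and passed as higher in NdpKO;Ptch+/- MBs (log2 fold change 0.53, adjusted p = 0.0363 by limma), with 1 tumor inside the GNP range. This call was lost on omission of any 1 of the 8 arrays compared except NdpKO;Ptch+/- MB replicate 4 (adjusted p 0.0584 to 0.101). In Ptch+/- MBs its difference was 0.12 (95% interval −0.19 to 0.44). *Fzd3* did not pass by its brightest probe (−0.53 and −0.29), whereas a dimmer probe passed as lower in both genotypes (−1.26 and −0.91, adjusted p = 0.0064 and 0.0382) and another had the opposite sign (0.36 and 0.10). The second probe of *Lrp6* lay at the background limit and gives no measure of its difference.

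Of the 5 secreted inhibitors, 3 were at background, 1 passed as higher in each tumor group and 1 as lower in NdpKO;Ptch+/- MBs. *Sfrp2*, whose product binds Wnts outside the cell, gave 6.37, 7.17, 6.34 and 6.97 in the WT GNPs, 8.48, 9.22, 9.38 and 8.20 in the Ptch+/- MBs and 9.27, 9.11, 9.87 and 9.17 in the NdpKO;Ptch+/- MBs. No tumor overlapped the GNPs, and the gene rose by 2.11 (SE 0.31, 4.33-fold, adjusted p = 0.00141 by limma) in Ptch+/- MBs and by 2.64 (6.25-fold, adjusted p = 0.000521) in NdpKO;Ptch+/- MBs. *Dkk3* fell by 2.34 against GNPs in NdpKO;Ptch+/- MBs (SE 0.29, 5.06-fold, adjusted p = 0.000672), while its difference of −0.73 in Ptch+/- MBs did not pass (adjusted p = 0.121).

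*Tcf7l2*, at 7.06, 7.30, 6.88 and 7.30 in the WT GNPs, was lower in Ptch+/- MBs by a fitted log2 fold change of −2.29 (SE 0.37, adjusted p = 0.00221 by limma), with Ptch+/- MB replicate 1 at background. In NdpKO;Ptch+/- MBs its difference was −0.90 and did not pass (adjusted p = 0.157). The other probes of *Tcf7l2* lay at background on all arrays, and the call of 1 of them in the Ptch+/- comparison has no meaning.

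Of the target genes, *Sp5* fell furthest: at least 96.9-fold lower in NdpKO;Ptch+/- MBs than in GNPs (adjusted p = 0.000405 by limma), and lower by a fitted log2 fold change of −5.26 in Ptch+/- MBs (SE 0.78, adjusted p = 0.00148). *Lgr5* went up. It read 4.38, 4.32, 4.37 and 4.86 in the WT GNPs, 7.06, 7.43, 7.75 and 4.88 in the Ptch+/- MBs and 5.19, 5.24, 6.85 and 6.93 in the NdpKO;Ptch+/- MBs. Every tumor exceeded every GNP sample, Ptch+/- MB replicate 4 by 0.02.

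*Lgr5* passed in Ptch+/- MBs (fitted log2 fold change 2.30, adjusted p = 0.0367 by limma) and not in NdpKO;Ptch+/- MBs (1.57, adjusted p = 0.165). The first call was lost on omission of any 1 of the 8 arrays except Ptch+/- MB replicate 4 (adjusted p 0.0618 to 0.0944). The remaining targets did not pass against GNPs. *Axin2* differed by 0.15 and −0.31 in Ptch+/- and NdpKO;Ptch+/- MBs, *Apcdd1* by 0.06 and −0.08, *Nkd1* by 0.73 and 0.09, and *Tnfrsf19* by −1.46 and −0.47.

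For 25 of the 45 genes more than 1 probe was measured, and the probes of some differed in sign or call. *Lgr5* passed by its brightest probe, and its other probe was at background on all arrays. The 3 further probes of *Ctnnb1* differed between the tumor genotypes by −0.36 to 0.28, without passing. The second probe of *Axin1* gave 0.41 and 0.21 against GNPs and that of *Nkd1* gave 0.25 and −0.24, again without passing.

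**Figure D4:**
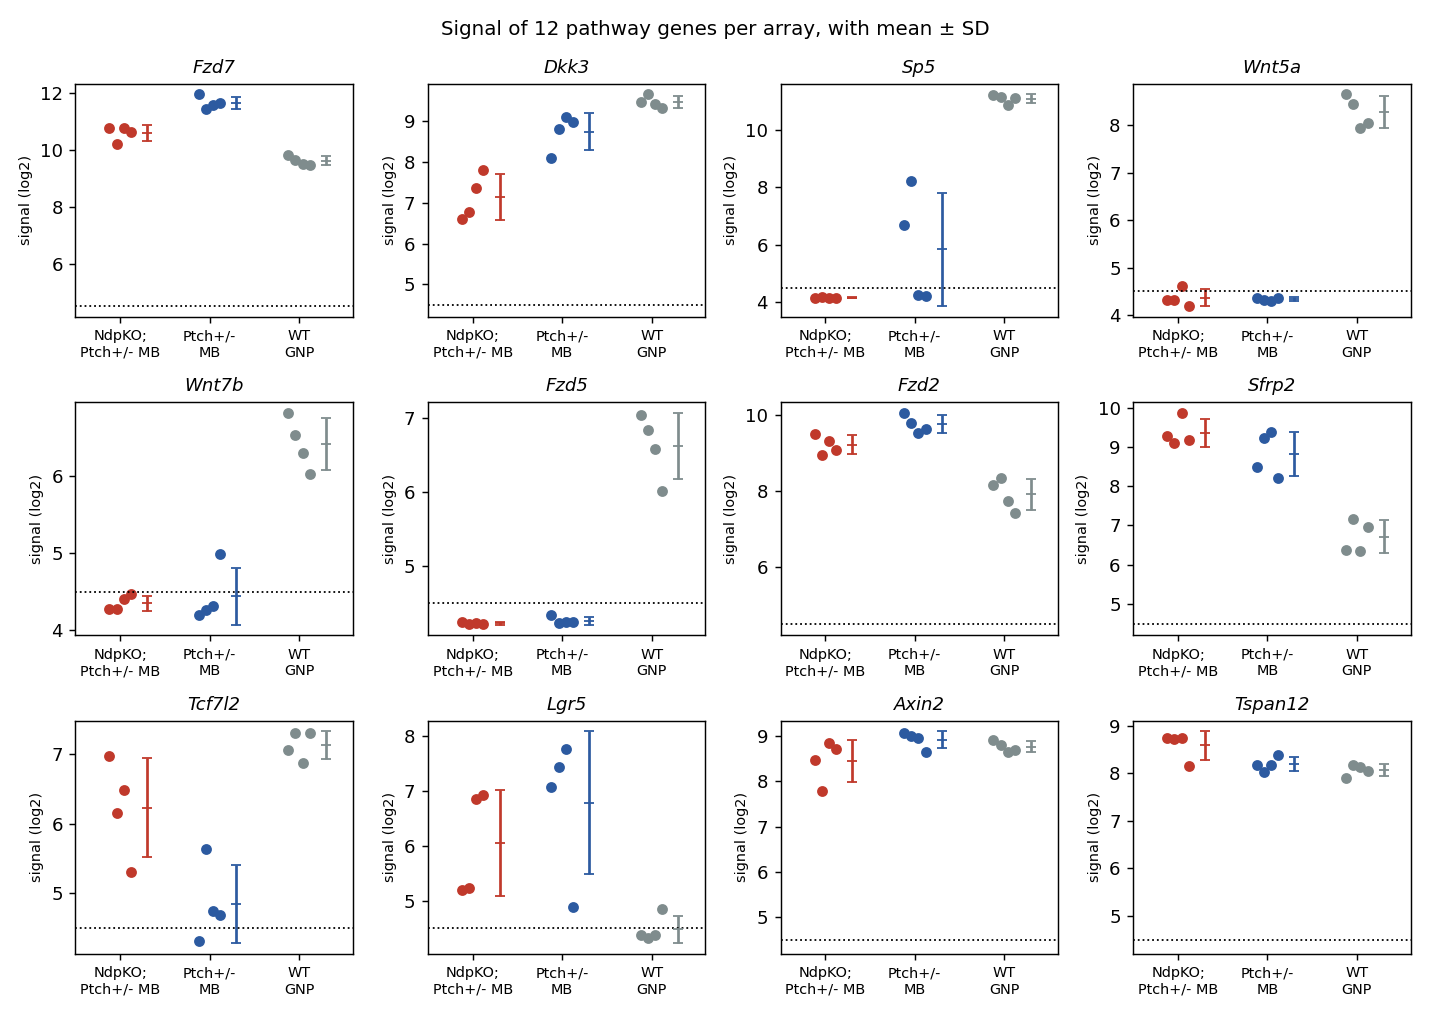
Normalized log2 signal (vertical axis, scaled per panel) of 12 genes in each NdpKO;Ptch+/- MB, Ptch+/- MB and WT GNP sample (points, 4 per group), with the mean ± SD beside them and the background limit of 4.5 as a dotted line. *Fzd7* and *Dkk3* separate the tumor genotypes, *Sp5* is above background in 2 of 8 tumors, and *Wnt5a*, *Wnt7b* and *Fzd5* are at or near background in all tumors.

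Other genes of the pathway were counted in the same way. Of 88 further measured genes in 6 lists, 41 were at background on all arrays, and none passed between the tumor genotypes. Of the 47 others, 11 had an unadjusted p under 0.05 there by limma, and the share of all genes at that level was not counted. All 13 other Wnt ligand genes and 6 of 8 genes for R-spondins, their receptors and ligand export were at background; *Porcn* and *Wls*, which are needed to acylate and export Wnts, were above it on all arrays and did not pass. Against GNPs, 15 of the 88 were higher and 13 lower in Ptch+/- MBs, and 7 higher and 10 lower in NdpKO;Ptch+/- MBs. These are 17.0% and 14.8% of the 88 in Ptch+/- MBs, against 10.3% and 10.9% of all genes, and 7.95% and 11.4% in NdpKO;Ptch+/- MBs, against 7.69% and 7.98%.

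*Sfrp1*, encoding a secreted Wnt inhibitor, was at 13.43 ± 0.18 in NdpKO;Ptch+/- MBs, 13.82 ± 0.16 in Ptch+/- MBs and 12.08 ± 0.08 in WT GNPs (SD, n = 4), higher in both tumor groups by log2 fold changes of 1.35 and 1.74 against GNPs (adjusted p = 2.82e-05 and 4.26e-06 by limma). *Draxin*, a guidance molecule that antagonises Wnt, was higher by 1.19 and 1.13. Of 14 genes for alternative and planar polarity receptors, 5 were higher and 5 lower in Ptch+/- MBs, of which 1 and 2 at background on all arrays. In NdpKO;Ptch+/- MBs 0 were higher and 4 lower, of which 1 lower at background. In Ptch+/- MBs these are 35.7% each, against 10.3% and 10.9% of all genes. In NdpKO;Ptch+/- MBs they are 0% and 28.6%, against 7.69% and 7.98% of all genes. *Prickle2* and *Prickle1* were lower, with log2 fold changes of −2.63 and −1.45 in NdpKO;Ptch+/- and −3.08 and −1.41 in Ptch+/- MBs. *Ror2*, a receptor for WNT5A, and the cadherin genes *Celsr2* and *Celsr3* were higher in Ptch+/- MBs (2.27, 1.05 and 1.13), as was *Ryk* (0.33). *Csnk1d*, a casein kinase gene, was also lower in both groups (−1.02 and −0.93), and *Tle1*, encoding a Groucho corepressor of TCF factors, was higher (1.05 and 1.35).

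Among other known β-catenin targets, *Ccnd1*, the gene of cyclin D1, was higher in NdpKO;Ptch+/- and Ptch+/- MBs by 0.90 and 1.48 against GNPs (adjusted p = 0.00934 and 0.000414 by limma), and *Cd44* by 2.28 and 1.81. *Jun* was lower (log2 fold changes of −1.47 and −1.51). In each tumor group, 2 of the 14 measured targets were higher and 3 lower, or 14.3% and 21.4%. Over all genes these shares were 10.3% and 10.9% for Ptch+/- MBs and 7.69% and 7.98% for NdpKO;Ptch+/- MBs. Of the 14 targets, 9 were at background on all arrays, and 2 of the 3 lower ones were above it on any array. The target genes answer to many other inputs as well. *Frat2*, a gene of the transduction list whose product binds GSK3, was also lower (−0.81 and −0.74).

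Genes of other cell types also differed against GNPs, in 10 lists. Over all genes, 10.3% were higher and 10.9% lower in Ptch+/- MBs, and 7.69% and 7.98% in NdpKO;Ptch+/- MBs. The counts that follow stand beside these shares. *Atoh1*, the defining factor of GNPs, was at background on all 12 arrays. Of the 7 measured GNP genes, 2 were higher (*Barhl1* and *Ccnd2*) and 2 lower (*Pax6* and *Neurod1*) in Ptch+/- MBs, and 1 lower (*Zic2*) in NdpKO;Ptch+/- MBs. The mean of these genes was 9.68 to 9.90 in WT GNPs and 9.26 to 9.64 in the tumors.

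The mean of 8 genes of Purkinje cells and other cerebellar neurons was 7.77 to 8.35 in WT GNPs and 4.63 to 6.14 in the tumors. Of these, 5 were lower in each tumor group, 2 were at background everywhere, and *Pvalb* was higher in NdpKO;Ptch+/- MBs (log2 fold change 3.19, adjusted p = 0.0218 by limma). *Slc32a1*, the vesicular transporter gene of inhibitory neurons, had a mean of 11.50 in GNPs, 4.90 in Ptch+/- MBs and 4.88 in NdpKO;Ptch+/- MBs.

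Of 9 oligodendrocyte lineage genes, 4 were lower and 3 higher in each tumor group. The lower ones are genes of myelin, such as *Mbp*, with means of 13.01 in GNPs, 8.10 in Ptch+/- MBs and 9.36 in NdpKO;Ptch+/- MBs. The higher ones, *Olig1*, *Pdgfra* and *Cspg4*, are known from the precursors of these cells. The mean of 9 microglial genes was 4.93 to 5.28 in GNPs and 6.86 to 8.05 in the tumors, with 5 higher in each tumor group.

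Of 12 endothelial genes, 5 were lower against GNPs in Ptch+/- MBs, and 1 was lower and 1 higher in NdpKO;Ptch+/- MBs. Their mean was 6.95 to 7.42 in GNPs, 6.08 to 6.77 in Ptch+/- MBs and 6.70 to 7.36 in NdpKO;Ptch+/- MBs. Of 10 meningeal genes, 3 were lower and 1, at background on all arrays, higher in Ptch+/- MBs, and 4 were lower in NdpKO;Ptch+/- MBs. Of 10 astrocyte and Bergmann glia genes, 3 were higher and 1 lower in Ptch+/- MBs and 4 higher in NdpKO;Ptch+/- MBs. Of 10 pericyte genes, 1 was higher and 1 lower in Ptch+/- MBs and 2 higher in NdpKO;Ptch+/- MBs. The higher gene in Ptch+/- MBs and 1 of the 2 in NdpKO;Ptch+/- MBs was *Cspg4*, which is also in the oligodendrocyte lineage list. In both tumor groups, 1 of 7 choroid plexus genes was higher and 2 of 8 mature granule neuron genes were lower. The part of these cells in the differences of *Wnt5a*, *Wnt7b*, *Fzd5*, *Sp5*, *Tcf7l2* and the other genes against GNPs was not tested.

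Between the tumor genotypes, 5 genes of the 10 lists passed, where 0.808% of all genes were called higher and 1.26% lower. *Emcn* and *Ramp2* were higher in NdpKO;Ptch+/- MBs (adjusted p = 0.0321 and 0.0192 by limma) among 12 endothelial genes, of which 3, *Kdr* among them, were at background on all arrays. The means of these 12 overlapped, at 6.70 to 7.36 in NdpKO;Ptch+/- and 6.08 to 6.77 in Ptch+/- MBs. *Vtn* was higher (log2 fold change 0.90, adjusted p = 0.0427) among 10 pericyte and smooth muscle genes, of which 4, *Pdgfrb* among them, were at background, with means of 5.86 to 6.20 against 5.30 to 5.67.

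*Hopx* of the astrocyte and Bergmann glia list was higher by 1.71 (adjusted p = 0.0126 by limma) and *Ccnd2* of the GNP list was lower (−0.85, adjusted p = 0.028), both without overlap of the genotypes. The list means overlapped for astrocyte and Bergmann glia genes (9.12 to 9.78 and 8.72 to 10.02), GNP genes (9.31 to 9.39 and 9.26 to 9.64), choroid plexus genes (5.71 to 7.06 and 5.44 to 8.30) and meningeal genes (4.80 to 5.22 and 4.95 to 6.28). The part of these cells in the *Fzd7* and *Dkk3* results was not tested.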

How the data were processed

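Total RNA of 12 samples was hybridised to Illumina MouseWG-6 v2.0 BeadChips. The authors took BeadStudio output through neqc in limma to give the deposited log2 signals. This step corrects background with control probes and quantile normalizes the arrays. The limma version is not given in the sources used here, and probe annotation used illuminaMousev2.db. Quantile normalization hides differences in general level between arrays. Values run from 4.09 to 16.0 over 45281 probes, of which 34885 have 1 gene symbol, 18 several and 10378 none.

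From these values a group-means model without covariates was fitted over all 12 arrays with lmFit and eBayes (limma 3.58.1, R 4.3.3), with Benjamini-Hochberg adjustment over all probes and a threshold of 0.05. A gene was its probe with the highest mean. The background limit was 4.5. Where the dimmer group was under it on all 4 arrays, "at least" folds compare the brighter mean with the limit; where some arrays were under it, the fold is a fitted value. No fold is given where both groups were under it. The exact permutation test ran over the 70 arrangements of 8 tumors. Scripts were tested on simulated data.

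The genes, the lists, the background limit and the tests were chosen with earlier results of these data known. The text names all genes of the list by role, with values for the Norrin receptor complex, the targets above background and every gene that passed and, of the other pathway lists, up to 2 with the smallest p against GNPs per list; *Porcn*, *Wls*, *Ror2*, *Ryk*, *Celsr2*, *Celsr3* and the cell type genes were named after their values were seen. Genes of 10 cell type lists were counted in each comparison. Promoter windows came from RefSeq (GRCm38.p6). Alternatives were cyclic loess, a filter on dim probes, an intensity trend, array weights, the mean of all probes, a threshold of 0.01, a replicate block, the groups compared alone and the omission of single arrays.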

Additional observations from a re-analysis of the deposited data

Results flagged for a closer look

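Among genes above background, 74 groups of 4 samples were searched for a sample far from the other 3 (Dixon's criterion), and 6 held one. For normally spread values, chance alone gives such a sample in about 1 of 20 groups. *Tspan12* was 8.15 in NdpKO;Ptch+/- MB replicate 4, against 8.72 to 8.75 in the other 3. Without this tumor *Tspan12* and *Tcf7l2* passed between the tumor genotypes, and *Tcf7l2* also passed in some fits that kept it. *Fzd10* was 5.56 in WT GNP replicate 2, against 6.13 to 6.20. *Lgr5* was 4.86 in WT GNP replicate 4, against 4.32 to 4.38, and *Lrp6* was 5.05 in the same sample, against 4.36 to 4.45. *Wnt7b* was 4.99 in Ptch+/- MB replicate 4, the 1 Ptch+/- MB above background, against 4.19 to 4.31. For *Lgr5*, *Lrp6* and *Wnt7b* the other 3 samples were at background, where values are compressed and that rate need not hold. *Apc* was 7.36 in WT GNP replicate 3, against 7.51 to 7.53. No cause was tested for any of them.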

How the results depend on the processing

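Between the tumor genotypes, 0 genes higher and 2 lower became 1 higher (*Tcf7l2*) with dim probes left out or with an intensity trend and robust prior, and 0 lower at a threshold of 0.01 or with the 8 tumors alone. Omitting single arrays gave 0 to 2 higher and 1 to 2 lower; the 2 higher, *Tspan12* and *Tcf7l2*, came without NdpKO;Ptch+/- MB replicate 4. *Fzd7* passed in 14 of 15 other fits and *Dkk3* in 7. Against GNPs, 5 higher in Ptch+/- MBs became 3 at 0.01 and 3 with those groups alone, and 5 higher in NdpKO;Ptch+/- MBs became 3 at 0.01. Omissions gave 3 to 5 higher (3 without WT GNP replicate 2) and 6 to 8 lower in Ptch+/- MBs, and 3 to 6 higher (3 without NdpKO;Ptch+/- MB replicate 3) and 5 to 6 lower in NdpKO;Ptch+/- MBs.

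With the replicate number as a block, 1 gene (*Fzd7*) was lower between the tumor genotypes, and *Dkk3* (adjusted p = 0.0596), *Lgr5* (0.0853) and *Tspan12* (0.0952) did not pass. The numbers do not pair the samples: the deviations of 12 same-number pairs correlated at −0.18 to 0.11, with 1 over 0.1.

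Values that changed sign, all between the tumor genotypes and none passing, were *Fzd5* 0.05 (cyclic loess, both groups at background), *Apcdd1* 0.01 (array weights), *Dvl1* −0.03 (mean of all probes) and, over omissions of single arrays, *Apc* −0.27 to 0.13, *Apcdd1* −0.31 to 0.13, *Gsk3b* −0.09 to 0.07, *Wnt4* −0.09 to 1.10, *Wnt5a* −0.06 to 0.08, *Wnt7a* −0.42 to 0.04, *Wnt7b* −0.17 to 0.10, *Fzd1* −0.01 to 0.54 and *Fzd10* −0.03 to 0.29. Of 459 single values in this comparison 426 kept sign and call, as did 157 of 170 in each comparison with GNPs, where none changed sign. The cause of these changes was not tested.

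The same number of genes, 18, was at background with a limit of 5 or with any probe of a gene counted. Counting calls only where an array of the groups compared was above 4.5, a rule added after seeing the data, left 5 lower in each comparison with GNPs. Background correction could not be varied from corrected values, and no slide is given in the labels.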
